A study of Mus musculus with 12 samples.

Results

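The transcripts of p53 and of the genes that hold it in check were examined in 12 mouse thymic lymphomas, tumours of developing T cells. The set has 8 genes of the 37991 in the count table and was picked by name for the genes' role in the pathway. The rule itself uses no measured value, but the set was chosen with earlier results of these data known. It holds Trp53 (p53), its relative Trp73 (p73), Mdm2 and Mdm4 (the inhibitors MDM2 and MDM4), Cdkn2a and Cdkn2b (ARF, p16INK4a and p15INK4b), Ppm1d (the phosphatase WIP1) and Usp7 (a deubiquitinase). All 8 were found in the table and all 8 passed the filter on low counts.

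The study asked what separates lymphomas that resist the genetic restoration of p53 from those that respond to it. Response was judged as growth or shrinkage by magnetic resonance imaging, and tumours were frozen after the last scan. An RNA-seq library was made from each of 4 non-responder and 8 responder tumours. The total count was 20796860 to 24393524 in non-responders and 23808086 to 30265753 in responders. The mice of both groups were C57BL/6 with the genotype p53neo/R172H;R26CreER/GNZ, that is, a p53neo allele, a mutant R172H allele, a Cre recombinase that tamoxifen activates (R26CreER) and GNZ, which the labels do not explain. All of them had received weekly intraperitoneal tamoxifen to restore wild-type p53, and their age is not given in the sources used here. No untreated tumour was analysed here, so the values compare the 2 outcomes after restoration and not restored with unrestored p53. The table has 1 value for Trp53 and does not tell the restored allele apart from the mutant one, which is in the genotype of every mouse. It does not show which alleles each tumour kept, nor in what share of the cells restoration took place.

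p53 is a transcription factor that stops the cell cycle or kills the cell after damage or oncogene activation. MDM2 is a ubiquitin ligase that marks p53 for destruction, and its gene is itself switched on by p53, which closes a feedback loop. MDM4 resembles MDM2, binds p53 and blocks its activity. ARF is made from the Cdkn2a locus when oncogenes are active and holds MDM2 away from p53. USP7 removes ubiquitin from MDM2 and from p53, and WIP1 removes phosphates from p53 and from the kinases that activate it. Mice without p53 are prone to thymic lymphoma. Much of this control acts on the proteins, which were not measured.

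None of the 8 genes passed in edgeR after Benjamini-Hochberg adjustment over the 18612 genes tested. The background was also 0.0%, since edgeR called 0 genes at an adjusted p under 0.05. At an unadjusted p under 0.05 edgeR found 3 of the 8 genes, against a background of 4428 genes or 23.8%. Mdm2 and Usp7 were the higher ones in non-responders, where the background was 7.73%, and Trp73 was the lower one, where it was 16.1%. Trp73 passed the filter on low counts through the responders, the group where it is high, so its direction was favoured by the filter and its call adds no support. DESeq2 called 1 of the 8, Mdm2, against a background of 2462 genes or 13.3%, and limma-voom called 0 of the 8 against 1647 genes or 8.85%, with a lowest adjusted p of 0.0526. The values of the groups overlapped for each of the 8 genes, while they did not overlap for 2.13% of all genes. The 8 log2 fold changes had a median of 0.03, against -0.02 for all genes.

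**Figure D1:**
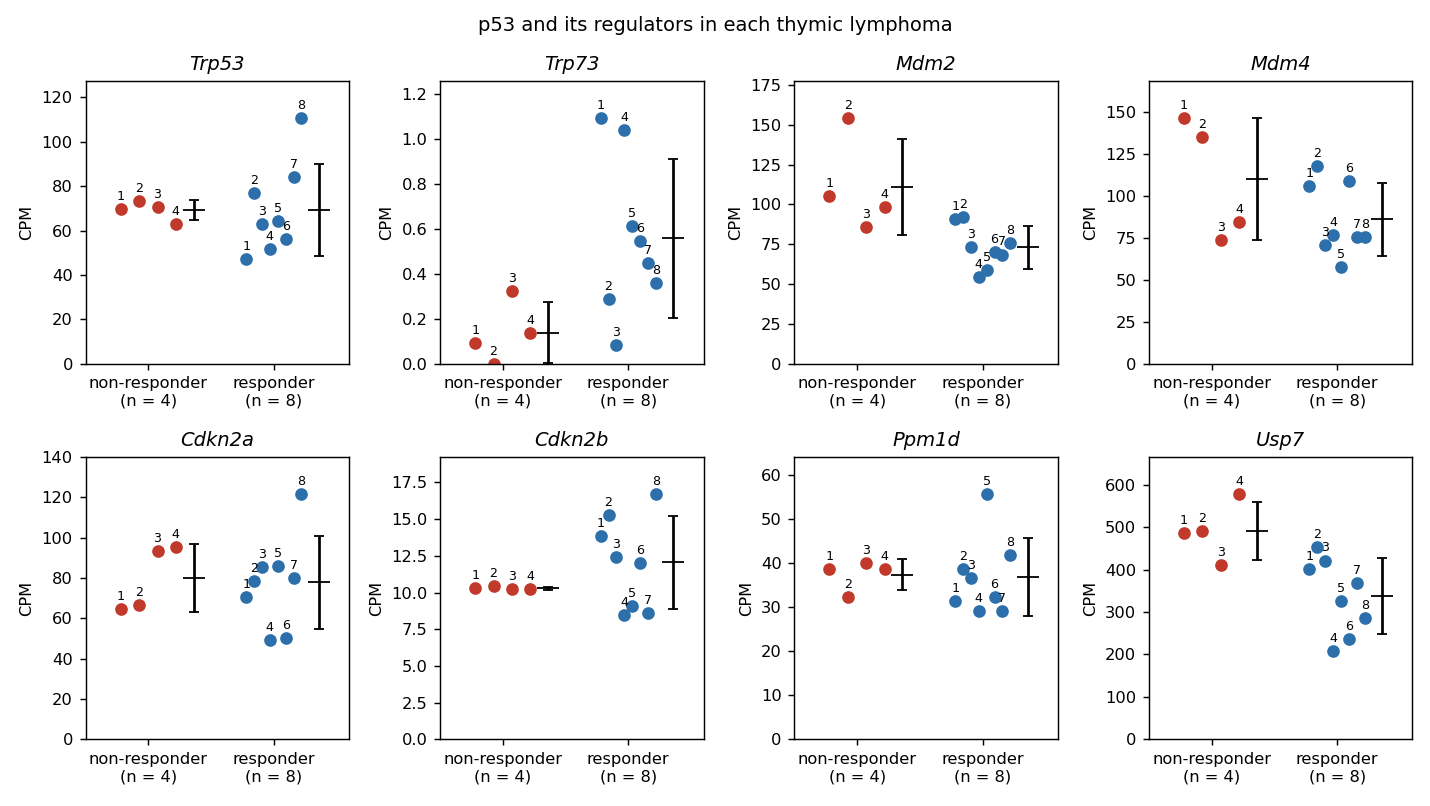
Counts scaled to a common library total (CPM, y axis, a separate linear scale from 0 for each gene) of the 8 genes in 4 non-responder and 8 responder tumours. Each numbered point is 1 tumour and the bars are mean ± SD. The groups overlap in every panel, least for Mdm2 and Usp7, and responder 8 is the highest tumour for Trp53, Cdkn2a and Cdkn2b.

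The tissue label was checked against T-cell markers. The 8 general T-cell markers were detected in both groups, with a summed level of 2161 to 2832 CPM in non-responders and 785 to 2366 CPM in responders. The 10 markers of cortical thymocytes, the immature T cells of the thymus, all had a higher mean in non-responders, and their summed level was 1439 to 5871 CPM in non-responders and 394 to 4295 CPM in responders. Their mean log2 CPM, called the cortical score here, was 6.33 to 8.26 in non-responders. It was 7.32 to 7.96 in responders 1 to 3 and 1.72 to 3.01 in responders 4 to 8. Of the 8 markers of mature T cells, 7 had a lower mean in non-responders and 1 a higher one. Their mean log2 CPM was 2.20 to 3.20 in non-responders, 2.28 to 4.62 in responders 1 to 3 and 4.98 to 5.87 in responders 4 to 8. Markers of other cells were mostly lower on mean in non-responders, with all tested markers lower for neutrophils (8), B cells (7), thymic epithelium (7), endothelium (6), erythroid cells (6), muscle (6) and adipocytes (4), 6 of 8 for macrophages and 4 of 7 for fibroblasts. The neutrophil markers, for example, summed to 3.35 to 20.9 CPM in non-responders and 21.0 to 671 CPM in responders. The mean score of these 9 lists, called the non-T-cell score, was 1.83 to 2.44 in non-responders and 2.42 to 5.62 in responders, so it nearly separates the groups, and a fit with it as a covariate has little left to tell the group apart. No marker of these lists was at 0 in all tumours. Since whole tumours were sequenced, fewer cells of a type and less RNA per cell cannot be told apart.

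Trp53, the restored gene (ENSMUSG00000059552, chromosome 11, 69580359 to 69591873, plus strand, GRCm38), had nearly equal means in the 2 groups. It was at 69.8, 73.4, 70.5 and 63.1 CPM in non-responders 1 to 4. In responders it ranged from 47.1 CPM in responder 1 to 110.8 CPM in responder 8, with a median of 63.8 CPM. The 4 non-responders sat close together inside the wider range of the responders. Means were 69.2 ± 4.36 CPM in non-responders and 69.3 ± 20.8 CPM in responders (SD, n = 4 and 8), with a log2 fold change (non-responder minus responder) of -0.0021 ± 0.21 (SE; adjusted p = 0.997 in edgeR). With the non-T-cell score as a covariate the log2 fold change was -0.47 (edgeR adjusted p = 0.783).

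Trp73 encodes p73, a transcription factor of the p53 family that binds many of the same sites. It was close to the limit of detection, with 2, 0, 7 and 3 counts in non-responders 1 to 4 and 2 to 32 counts in responders. These counts corresponded to 0 to 0.322 CPM in non-responders and 0.0844 to 1.09 CPM in responders, whose median was 0.496 CPM. Responders 1 and 4 were the highest tumours, and responders 2 and 3 lay among the non-responders. The log2 fold change was -1.98 ± 0.76 (SE; adjusted p = 0.149 in edgeR), and it was -0.65 with the non-T-cell score as a covariate (edgeR adjusted p = 0.943). Trp73 overlaps an antisense gene, Trp73os, and it is not given whether counting used the strand, so reads of the 2 genes may be mixed.

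Cdkn2a (ENSMUSG00000044303, chromosome 4, 89274471 to 89294653, minus strand, GRCm38) has 2 starts. The upstream start gives ARF and the downstream start gives p16INK4a, an inhibitor of the kinases CDK4 and CDK6, and the deposited counts give their sum. Cdkn2a was at 64.5, 66.9, 93.6 and 95.6 CPM in non-responders 1 to 4. In responders it ranged from 49.4 CPM in responder 4 to 121.9 CPM in responder 8, with a median of 79.4 CPM. Non-responders 3 and 4 were above and non-responders 1 and 2 below that median. Means were 80.1 ± 16.7 CPM in non-responders and 77.9 ± 23.0 CPM in responders (SD, n = 4 and 8). The log2 fold change was 0.04 ± 0.23 (SE; adjusted p = 0.929 in edgeR), and it was -0.021 with upper-quartile scaling and -0.47 with the non-T-cell score as a covariate.

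Per kilobase of annotated exon, Cdkn2a was the highest of the 8 genes, with a mean over all 12 tumours of 67.1 ± 17.3 CPM per kb (SD). The length joins all annotated exons of a gene, 1172 bases for Cdkn2a, 7766 for Usp7 and 14798 for Mdm4. The order therefore depends on the annotation and is not a measure of transcript number. Without correction for length Usp7 was far above Cdkn2a, with means of 491 against 80.1 CPM in non-responders and 337 against 77.9 CPM in responders. On this scale Usp7 followed with 50.04 CPM per kb, and Cdkn2a exceeded it in 10 of 12 tumours. Trp53 (17.1 CPM per kb) and Mdm2 (16.9 CPM per kb) came next and did not differ beyond their spread, with Trp53 the higher in 8 of 12 tumours. The order differed by group, since Mdm2 was at 21.8 and Trp53 at 17.1 CPM per kb in non-responders, with Mdm2 the higher in 3 of 4, and Mdm2 was at 14.4 and Trp53 at 17.1 CPM per kb in responders, with Trp53 the higher in 7 of 8. Ppm1d was at 11.7, Cdkn2b at 8.25, Mdm4 at 6.36 and Trp73 at 0.0756 CPM per kb. Mdm2 exceeded Ppm1d in 11, Ppm1d exceeded Cdkn2b in 11, Cdkn2b exceeded Mdm4 in 10 and Mdm4 exceeded Trp73 in 12 of the 12 tumours. Cdkn2a was detected in every tumour of both outcomes, at 49.4 CPM or more, and per kilobase of annotated exon it was above Trp53 in every tumour. Without correction for length its means were nearer those of Trp53, at 80.1 against 69.2 CPM in non-responders and 77.9 against 69.3 CPM in responders.

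Cdkn2b encodes p15INK4b, the neighbouring inhibitor of the same kinases. It was nearly constant in the 4 non-responders, at 10.2 to 10.4 CPM. In responders it ranged from 8.46 to 16.7 CPM with a median of 12.2 CPM, so the non-responders lay inside the responder range. Means were 10.3 ± 0.110 CPM in non-responders and 12.1 ± 3.15 CPM in responders (SD, n = 4 and 8), for a log2 fold change of -0.23 ± 0.23 (SE; adjusted p = 0.572 in edgeR). It was -0.65 with the non-T-cell score and -0.39 with the cortical score as a covariate (edgeR adjusted p = 0.778 and 0.765), -0.14 in limma-voom, and -0.15 without responder 8.

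The sequences at the Cdkn2a and Mdm2 starts are shown because they hold the letters CCCGNATG, the core of the sequence known to be bound by DMTF1, a transcription factor that activates ARF and whose own transcript is described further on. Each window runs from 250 bases before to 50 bases after a RefSeq transcript start (GRCm38.p6), 5′ to 3′ on the gene's strand, with the match in capitals. All 8 genes matched the RefSeq promoter table, with 11 windows in all. The 2 Cdkn2a windows are chr4:89294570-89294869 (ARF) and chr4:89282143-89282442 (p16INK4a), and the Mdm2 window is chr10:117710709-117711008, each on the minus strand.
Cdkn2a, ARF start: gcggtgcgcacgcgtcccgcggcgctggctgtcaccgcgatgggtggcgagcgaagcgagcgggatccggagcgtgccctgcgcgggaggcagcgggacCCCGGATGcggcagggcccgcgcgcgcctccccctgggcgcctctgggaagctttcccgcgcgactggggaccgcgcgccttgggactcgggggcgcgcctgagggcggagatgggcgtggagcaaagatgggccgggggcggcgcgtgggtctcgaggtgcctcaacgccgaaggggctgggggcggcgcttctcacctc
Cdkn2a, p16INK4a start: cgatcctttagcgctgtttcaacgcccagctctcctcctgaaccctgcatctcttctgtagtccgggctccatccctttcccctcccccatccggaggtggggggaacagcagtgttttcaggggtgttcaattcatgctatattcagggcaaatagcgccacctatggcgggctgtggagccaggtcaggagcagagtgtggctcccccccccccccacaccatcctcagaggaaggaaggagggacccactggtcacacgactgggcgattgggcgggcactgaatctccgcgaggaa
Mdm2: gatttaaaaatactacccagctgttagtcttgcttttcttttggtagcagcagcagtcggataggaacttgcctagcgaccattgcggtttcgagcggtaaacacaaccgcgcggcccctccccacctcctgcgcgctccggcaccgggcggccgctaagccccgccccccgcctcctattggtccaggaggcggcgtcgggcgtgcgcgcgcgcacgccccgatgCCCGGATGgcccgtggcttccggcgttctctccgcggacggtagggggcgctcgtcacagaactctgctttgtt
The ARF window held CCCGGATG at position -151 relative to the start and the Mdm2 window held it at position -24, and no other window of the 8 genes matched on either strand. The p16INK4a window therefore differed from the ARF window of the same gene in this respect. Of the 32851 promoter windows in the table, 537 held the motif on either strand, or 1.63%. The decamer half-site of p53, searched on both strands, was present in 8.36% of all windows and in those of Mdm2 (position -186), Trp53 (position -75) and Ppm1d (position -132), with no overlap with the other motif. These are matches of letters and not measured binding.

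Mdm2 (ENSMUSG00000020184, chromosome 10, 117688875 to 117710758, minus strand, GRCm38), the gene of the ligase that degrades p53, was the member with the lowest p. It was at 105.2, 154.4, 85.9 and 98.5 CPM in non-responders 1 to 4. In responders it ranged from 54.6 CPM in responder 4 to 92.0 CPM in responder 2, with a median of 71.7 CPM. Non-responders 1, 2 and 4 were above every responder, and non-responder 3 was above 6 of the 8. Means were 111.0 ± 30.0 CPM in non-responders and 73.0 ± 13.4 CPM in responders (SD, n = 4 and 8), and the non-responder was the higher one in 30 of 32 pairs of tumours. The log2 fold change was 0.60 (SE 0.19) with an adjusted p of 0.118 in edgeR, 0.0283 in DESeq2 and 0.0526 in limma-voom, so the call depends on the tool. When 1 tumour was left out at a time, it was between 0.42 and 0.73 and did not pass in edgeR in any of the 12 fits.

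The cortical score differed among the responders, and Mdm2 followed it in part. Mdm2 was at 73.1 to 92.0 CPM in responders 1 to 3, whose cortical scores were near those of the non-responders. It was at 54.6 to 76.1 CPM in responders 4 to 8, whose scores were low, and responder 8 was above responder 3. Among the non-responders, non-responder 2 had the lowest cortical score, 6.33, and the highest Mdm2, 154.4 CPM. With the cortical score as a covariate the log2 fold change was 0.46 (edgeR adjusted p = 0.697), and with the non-T-cell score it was 0.39 (edgeR adjusted p = 0.850).

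The level of Mdm2 relative to its substrate was taken as the log2 ratio of Mdm2 to Trp53 within each tumour, on the CPM scale with no correction for length. It was 0.59, 1.07, 0.28 and 0.64 in non-responders 1 to 4 and ranged from -0.54 in responder 8 to 0.95 in responder 1. Responder 1, with the lowest Trp53, was above 3 of the 4 non-responders, and responders 5, 7 and 8 were below 0. Means were 0.65 ± 0.32 in non-responders and 0.11 ± 0.45 in responders (SD, n = 4 and 8), and the difference of 0.54 did not pass (exact permutation test over 495 splits, two-sided, p = 0.0626, smallest possible p = 0.00202). Without non-responder 3 or responder 1 the difference was 0.66 and passed the threshold of 0.05 (exact permutation p = 0.0485 and 0.00909).

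Mdm4 (ENSMUSG00000054387, chromosome 1, 132959484 to 133030561, minus strand), whose protein binds p53 and blocks its activity without being an efficient ligase itself, was higher on mean in non-responders by less than the spread between tumours. It was at 146.5, 135.3, 73.8 and 84.7 CPM in non-responders 1 to 4, and at 57.6 to 117.9 CPM in responders with a median of 76.2 CPM. Non-responders 1 and 2 were above every responder, and non-responder 3 was below 6 of the 8 responders. Means were 110.1 ± 36.2 CPM in non-responders and 86.1 ± 21.7 CPM in responders (SD, n = 4 and 8), for a log2 fold change of 0.35 ± 0.24 (SE; adjusted p = 0.374 in edgeR). It was 0.19 without non-responder 1 and 0.22 with the cortical score as a covariate. The log2 ratio of Mdm4 to Mdm2 was -0.04 ± 0.34 in non-responders and 0.22 ± 0.26 in responders (exact permutation test, two-sided, p = 0.168). It was positive in 1 non-responder, at 0.48 in non-responder 1, without which the difference was -0.43 (exact permutation p = 0.0242) in place of -0.26. A processed pseudogene, Gm29257, overlaps Mdm4 on the opposite strand, so some of its reads may be shared.

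Usp7 (ENSMUSG00000022710, chromosome 16, 8689595 to 8792308, minus strand) encodes the deubiquitinase of MDM2 and p53 and contains a small RNA gene, Gm25805, on the same strand. It was at 486, 489.8, 411 and 579 CPM in non-responders 1 to 4. In responders it ranged from 207 CPM in responder 4 to 453 CPM in responder 2, with a median of 346 CPM. Non-responders 1, 2 and 4 were above every responder, and responders 2 and 3 were above non-responder 3. Means were 491 ± 68.6 CPM in non-responders and 337 ± 89.0 CPM in responders (SD, n = 4 and 8), for a log2 fold change of 0.54 ± 0.21 (SE; adjusted p = 0.156 in edgeR). Usp7 was higher in the responders with a high cortical score. It was at 401 to 453 CPM in responders 1 to 3 and at 207 to 368 CPM in responders 4 to 8, and the log2 fold change was 0.23 with the cortical score as a covariate (edgeR adjusted p = 0.816) and 0.16 with the non-T-cell score (edgeR adjusted p = 0.960).

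**Figure D2:**
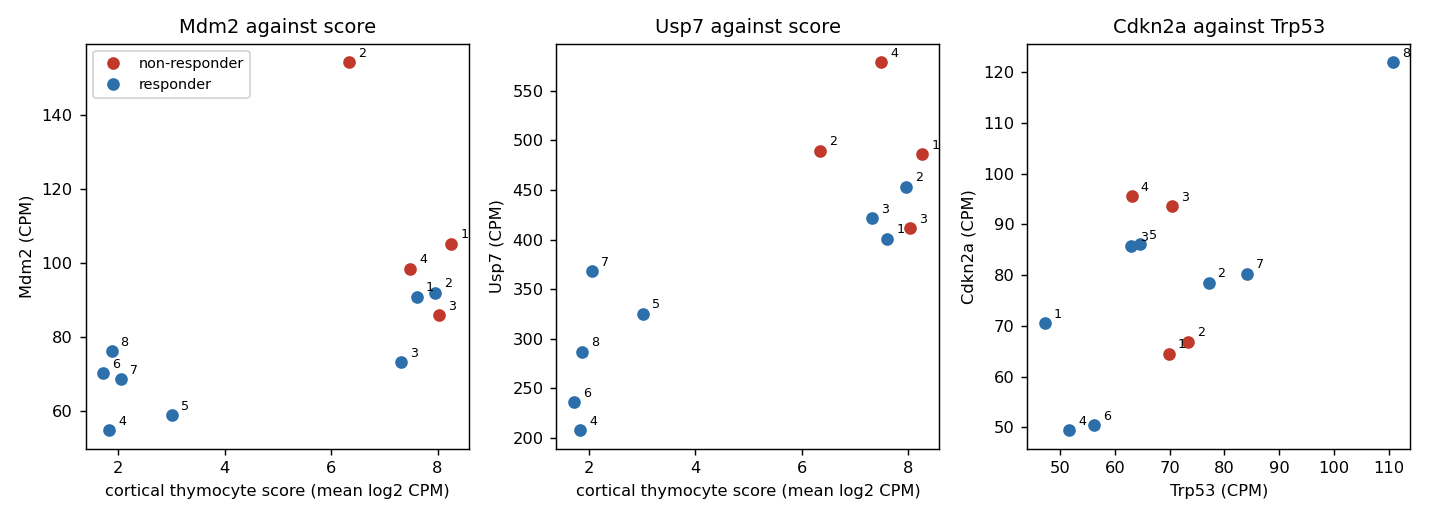
Mdm2 (left) and Usp7 (middle) in CPM against the cortical thymocyte score, the mean log2 CPM of 10 markers, and Cdkn2a against Trp53 (right, both in CPM), with 1 numbered point for each of 4 non-responder and 8 responder tumours. Responders 1 to 3 lie beside the non-responders on the score axis, and responder 8 lies apart at the upper right of the right panel. Axes do not start at 0.

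Ppm1d encodes WIP1, a phosphatase induced by p53 that shuts its signal down. It was at 38.8, 32.3, 40.1 and 38.6 CPM in non-responders 1 to 4 and at 29.1 to 55.9 CPM in responders, with a median of 34.5 CPM. Responder 5 was the highest tumour and the groups overlapped widely. Means were 37.4 ± 3.51 CPM in non-responders and 36.9 ± 8.94 CPM in responders (SD, n = 4 and 8), for a log2 fold change of 0.02 ± 0.19 (SE; adjusted p = 0.956 in edgeR) that was -0.039 with upper-quartile scaling. Ppm1d varied least of the 8 genes, with a coefficient of variation over the 12 tumours of 19.9%, against 31.1% for Mdm2 and 85.3% for Trp73.

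**Figure D3:**
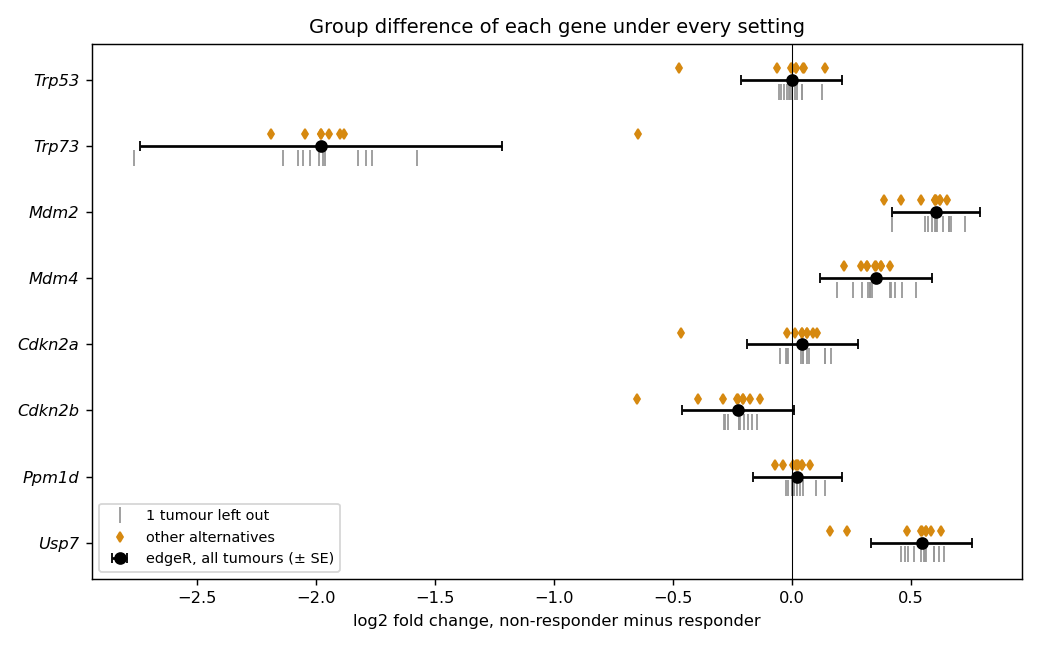
Log2 fold change (x axis, non-responder minus responder) of the 8 genes. Black points are edgeR with all 12 tumours and ± SE, grey ticks leave out 1 tumour each, and orange diamonds are the other settings, including both marker scores as covariates. Mdm2, Mdm4 and Usp7 stay above 0 and Trp73 and Cdkn2b below 0 in every setting drawn, while Trp53, Cdkn2a and Ppm1d lie on both sides.

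Across tumours, 3 relations within the circuit were tested on log2 CPM, with p-values also adjusted over the 3. For Cdkn2a and Trp53, Pearson's r was 0.66 over the 12 tumours (permutation p = 0.0202, adjusted p = 0.0607) and Spearman's rho was 0.45 (permutation p = 0.141, adjusted p = 0.424). Within the 8 responders r was 0.78 (exact permutation p = 0.0249, adjusted p = 0.0746) and rho was 0.74 (exact permutation p = 0.0458, adjusted p = 0.137). Without responders 1 and 8, the tumours farthest from the median of Trp53, r was 0.53 and did not pass (permutation p = 0.117), over fewer tumours and a narrower range of Trp53. Both genes tended to be lower where the non-T-cell score was higher, with r of -0.55 for Trp53 and -0.56 for Cdkn2a over the 12 tumours. The part of that score in the relation of Cdkn2a to Trp53 was not tested. The other 2 relations did not pass. For Mdm2 and Trp53 r was 0.16 (permutation p = 0.613) and rho was 0.23 (permutation p = 0.468), and without the same 2 tumours r was 0.46 (permutation p = 0.175). For Cdkn2b and Cdkn2a r was 0.36 (permutation p = 0.250) and rho was 0.16 (permutation p = 0.618), and without responders 4 and 6 r was 0.31 (permutation p = 0.385). After adjustment over the 3 relations none of them passed the threshold of 0.05, by r or by rho.

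The genes most like Trp53, Mdm2 and Cdkn2a over the 12 tumours were ranked by Pearson's r of log2 CPM among 14975 genes, as a description. The highest were Scarna9 (0.94), Thoc6 (0.92), Dffb (0.92) and Bms1 (0.89) for Trp53. They were Usf1 (0.94), Mtrf1l (0.94), Mob4 (0.92) and Ccdc38 (0.92) for Mdm2, and Nmt1 (0.93), Psmb2 (0.93), Canx (0.91) and Psmd12 (0.91) for Cdkn2a. No other member of the set was among them.

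The nearest coding genes at each locus were read from GENCODE M21 (GRCm38). Beside Trp53, Wrap53 lies 104 bases before it and encodes a protein of Cajal bodies and telomerase. Wrap53 was at 30.4 ± 2.42 CPM in non-responders and 22.4 ± 5.50 CPM in responders (SD, n = 4 and 8), with a log2 fold change of 0.44 (edgeR adjusted p = 0.193). On the other side Atp1b2, a sodium pump subunit, was near 1 CPM or under on mean in both groups, at 0.952 CPM in non-responders and 0.583 CPM in responders. Beside Cdkn2a and Cdkn2b, Mtap, a gene of methionine salvage, was at 68.8 ± 14.1 CPM in non-responders and 95.7 ± 36.2 CPM in responders (edgeR adjusted p = 0.319). On the other side of that pair, Dmrta1 was at 0.402 ± 0.371 CPM in non-responders and 15.5 ± 21.7 CPM in responders, for a log2 fold change of -5.25 ± 1.51 (SE; adjusted p = 0.117 in edgeR), and the groups overlapped. Dmrta1 was near the floor of the filter in non-responders and passed it through the responders, the group where it is high, so its direction was favoured by the filter.

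At the Mdm2 locus several neighbours had higher means in non-responders, as Mdm2 did. Slc35e3, the next coding gene on one side, was at 31.1 ± 4.82 CPM in non-responders and 16.4 ± 5.43 CPM in responders (SD, n = 4 and 8), and its groups did not overlap. Its log2 fold change was 0.92 ± 0.25 (SE; adjusted p = 0.117 in edgeR). Cpm, which encodes carboxypeptidase M and lies on the other side, averaged 19.8 CPM in non-responders and 22.6 CPM in responders (edgeR adjusted p = 0.831). The 5 tested coding genes on each side of Mdm2, a window chosen after these values were seen, span 117215221 to 118870209 on chromosome 10. Of these 10, 5 were higher in non-responders at an unadjusted p under 0.05 (Yeats4, Cpsf6, Slc35e3, Nup107 and Mdm1), against the background of 7.73%, and 1 (Lyz1) was lower, against 16.1%. Non-responder 2, the tumour with the most Mdm2, was also the highest for Yeats4 at 104 CPM, Cpsf6 at 677 CPM and Nup107 at 278 CPM. Slc35e3 was highest in non-responder 4, at 35.8 CPM, and Mdm1 in non-responder 3, at 82.3 CPM, which had the least Mdm2 of the non-responders. Slc35e3 was at 19.2 to 24.6 CPM in responders 1 to 3, with a high cortical score, and at 9.82 to 15.0 CPM in responders 4 to 8. For Cpsf6 these ranges were 322 to 539 and 185 to 343 CPM and overlapped, as they did for Nup107 and Mdm1. For Yeats4 they were 37.0 to 44.2 and 33.5 to 58.9 CPM. Of the 5 tested coding genes on each side of Cdkn2a, which include Cdkn2b, 0 of 10 were higher and 2 were lower at that p, near the background of 16.1%. Dmrta1 is 1 of these 2, so that count is partly set by the filter. DNA copy number was not measured.

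Beyond the 8 genes, 87 other genes of the pathway were followed in 9 lists. All 87 were tested and edgeR called none of them, with a lowest adjusted p of 0.117. At an unadjusted p under 0.05 there were 20, or 23.0% of them, against the background of 23.8%. In non-responders 10 of the 87 were higher and 10 lower, against backgrounds of 7.73% and 16.1% of all genes. The median log2 fold change of the 87 was 0.09, against -0.02 for all genes. Of the 87, 53 were above 0, where 48.5% of all genes were above 0. The lists therefore held no more genes at this p than the transcriptome as a whole.

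**Figure D4:**
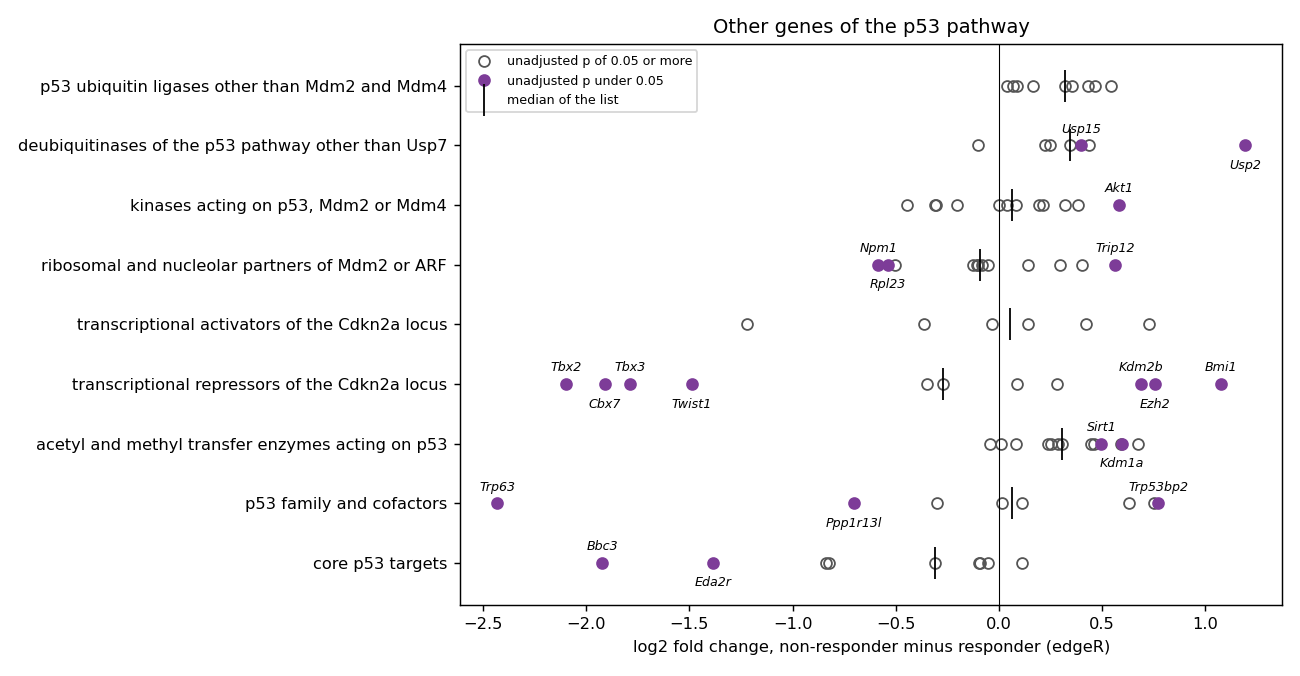
Log2 fold changes (x axis, non-responder minus responder, edgeR) of 87 genes in 9 lists of the p53 pathway (rows). Each circle is 1 gene, filled where the unadjusted p was under 0.05, and the vertical line in each row is the list's median. All 9 other ubiquitin ligases lie above 0, where 48.5% of all genes do, and the repressors of the Cdkn2a locus split into both directions.

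Other ubiquitin ligases that act on p53 had a higher mean in non-responders in 9 of 9 cases, where 48.5% of all genes were above 0. Their median log2 fold change was 0.32, but none was at an unadjusted p under 0.05. Rfwd3, a ligase of the DNA damage response, was at 183 ± 31.9 CPM in non-responders and 126 ± 45.2 CPM in responders (SD, n = 4 and 8, edgeR adjusted p = 0.214), with a log2 fold change of 0.54 that was -0.043 with the non-T-cell score as a covariate. Cop1 was at 119 ± 22.6 CPM in non-responders and 88.0 ± 27.9 CPM in responders (edgeR adjusted p = 0.278). In responders 1 to 3, with a high cortical score, Cop1 was at 115 to 129 CPM, inside the range of the non-responders. It was at 66.0 to 71.1 CPM in responders 4 to 8. Among 7 further deubiquitinases 6 were above 0, against the same 48.5% of all genes, with a median of 0.34. Usp2, which stabilises MDM2, was at 23.0 ± 8.39 CPM in non-responders and 10.04 ± 7.33 CPM in responders (edgeR adjusted p = 0.193). It was at 12.9 to 22.4 CPM in responders 1 to 3 and at 3.32 to 11.4 CPM in responders 4 to 8. Usp15 was at 162 ± 48.5 CPM in non-responders and 123 ± 14.4 CPM in responders (edgeR adjusted p = 0.195), with non-responder 2 the highest tumour at 227 CPM, and its log2 fold change of 0.40 was 0.21 without that tumour.

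Of the 12 kinases that act on p53, MDM2 or MDM4, 8 were above 0 with a median of 0.06. Akt1, the kinase that phosphorylates MDM2 downstream of growth factors, was at 297 ± 77.1 CPM in non-responders and 198 ± 63.6 CPM in responders (SD, n = 4 and 8, edgeR adjusted p = 0.181). Chek2, the DNA damage kinase that phosphorylates p53, was at 32.4 ± 11.7 CPM in non-responders and 26.0 ± 4.26 CPM in responders (edgeR adjusted p = 0.402). Of the 12 ribosomal and nucleolar proteins that bind MDM2 or ARF, 4 were above 0 with a median of -0.09. Npm1, which holds ARF in the nucleolus, was at 850.4 ± 176 CPM in non-responders and 1276 ± 247 CPM in responders, with a log2 fold change of -0.59 (edgeR adjusted p = 0.125). Rpl23, a ribosomal protein that binds MDM2, was at 639 ± 131 CPM in non-responders and 927 ± 190.1 CPM in responders (edgeR adjusted p = 0.140). Counts of Npm1 and of ribosomal protein genes are uncertain, because processed pseudogenes share their sequence.

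The repressors of the Cdkn2a locus were the list with the most genes at an unadjusted p under 0.05, 7 of 11, against the background of 23.8%, and they went both ways. Tbx2, Tbx3 and Twist1, 3 of the 7, were near the floor of the filter in non-responders and passed it through the responders, the group where they are high, so the count is partly set by the filter. Of the 6 Polycomb genes in the list, which silence the locus, Bmi1, Ezh2, Kdm2b and Rnf2 had higher means in non-responders and Cbx7 and Cbx8 lower ones. Bmi1 was at 160.1 ± 34.5 CPM in non-responders and 76.0 ± 37.9 CPM in responders (SD, n = 4 and 8, log2 fold change 1.08, edgeR adjusted p = 0.117). Ezh2, the Polycomb methyltransferase, had a log2 fold change of 0.76 and the demethylase Kdm2b one of 0.69 (edgeR adjusted p = 0.196 and 0.117). Cbx7, another Polycomb subunit, was at 33.3 ± 11.7 CPM in non-responders and 125 ± 124 CPM in responders (log2 fold change -1.91, edgeR adjusted p = 0.133). Rnf2 and Cbx8 had log2 fold changes of 0.28 and -0.35 and were not at an unadjusted p under 0.05. The T-box repressors Tbx2 and Tbx3 and the factor Twist1 had means of 0.521, 0.367 and 0.383 CPM in non-responders and 2.25, 1.28 and 1.08 CPM in responders. None of the 7 passed after adjustment, and Cdkn2a itself had a log2 fold change of 0.04. Of these genes Ezh2, Bmi1, Rnf2, Cbx7, Cbx8, Tbx3 and Twist1 were named after their values were seen.

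Of 13 enzymes that add or remove acetyl or methyl groups on p53, 12 were above 0, against 48.5% of all genes, with a median of 0.30. Sirt1, the deacetylase of p53, was the only one of the 87 genes whose groups did not overlap, against 2.13% of all genes. It was at 73.9, 74.8, 75.6 and 112.9 CPM in non-responders 1 to 4 and at 45.8 to 69.4 CPM in responders, for a log2 fold change of 0.50 ± 0.17 (SE; adjusted p = 0.127 in edgeR). It was 0.33 without non-responder 4, the highest tumour, and 0.17 with the non-T-cell score as a covariate. Kdm1a, a demethylase of p53, was at 165 ± 18.5 CPM in non-responders and 109 ± 32.0 CPM in responders (SD, n = 4 and 8, edgeR adjusted p = 0.136). It was at 129 to 160 CPM in responders 1 to 3 and at 70.9 to 109 CPM in responders 4 to 8. In the p53 family and its cofactors, Trp63, which encodes p63 and is an epithelial gene, was at 2.28 ± 2.51 CPM in non-responders and 12.4 ± 7.66 CPM in responders (log2 fold change -2.43, edgeR adjusted p = 0.123). Summed markers of thymic epithelium were 13.4 to 159 CPM in non-responders and 31.2 to 218 CPM in responders, and their part in the Trp63 values was not tested. Trp53bp2, which encodes the cofactor ASPP2, was at 35.3 ± 7.36 CPM in non-responders and 20.7 ± 6.60 CPM in responders (edgeR adjusted p = 0.118).

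Of 9 core p53 targets 8 had a lower mean in non-responders and 1 was above 0, where 48.5% of all genes were above 0. Their median log2 fold change was -0.31, and 2 of 9 were lower at an unadjusted p under 0.05, near the background of 16.1%. Bbc3, which encodes the cell death protein PUMA, was at 5.87, 2.60, 3.63 and 2.22 CPM in non-responders 1 to 4 and at 1.64 to 26.9 CPM in responders, for a log2 fold change of -1.92 ± 0.69 (SE; adjusted p = 0.134 in edgeR). Responders 2 and 3 were as low as the non-responders. Eda2r, which encodes a member of the tumour necrosis factor receptor family, was at 0.522 ± 0.271 CPM in non-responders and 1.37 ± 0.699 CPM in responders (SD, n = 4 and 8, edgeR adjusted p = 0.135). Eda2r was near the floor of the filter in non-responders and passed it through the responders, the group where it is high. The count of 2 lower targets is therefore partly set by the filter. Mdm2, itself a p53 target, was higher on mean in non-responders, unlike 8 of these 9 genes.

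Of the 6 activators of the Cdkn2a locus 3 were above 0, with a median of 0.06. Ets2 was at 171 ± 75.5 CPM in non-responders and 103 ± 51.2 CPM in responders (SD, n = 4 and 8, edgeR adjusted p = 0.254), and its log2 fold change of 0.73 was -0.19 with the non-T-cell score as a covariate. Foxo3 was at 136 ± 44.3 CPM in non-responders and 101 ± 29.3 CPM in responders (edgeR adjusted p = 0.315). Dmtf1, whose motif is in the ARF and Mdm2 windows printed above, stood out in 1 tumour and was singled out after its values were seen. It was at 97.3, 123, 77.6 and 105 CPM in non-responders 1 to 4 and at 62.2 to 123 CPM in responders 1 to 7, but at 1260 CPM in responder 8. Its log2 fold change was -1.22 ± 0.86 (SE; adjusted p = 0.402 in edgeR) and 0.18 without responder 8.

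Dmtf1 was not alone on its chromosome. In responder 8 a run of 12 consecutive tested coding genes on chromosome 5, from 8046078 to 9481825 (GRCm38), each had its highest value of the 12 tumours. The run goes from Sri through Adam22, Dbf4, Slc25a40, Rundc3b, Abcb1a, Abcb1b, Abcb4, Crot, Tmem243 and Dmtf1 to 9330182L06Rik. Responder 8 exceeded the highest other tumour by 1.34-fold for Abcb4 to 41.5-fold for Abcb1b, which encodes a drug efflux pump. Dbf4, the activating subunit of the replication kinase CDC7, was at 2774 CPM in responder 8 and at 61.7 to 205 CPM in the other 11 tumours. The next tested gene on one side, Steap4, was at 8.73 CPM in responder 8 and at up to 112 CPM in the others, and the next on the other side, Sema3d, was at 3.57 CPM in responder 8 and at up to 36.1 CPM in the others. Over all 18612 genes, 16 exceeded the highest other tumour in responder 8 by at least the factor seen for Dmtf1, 10.2, and 9 of these were in this run. Tmem243 overlaps Dmtf1 on the opposite strand and Abcb1a resembles Abcb1b, so their reads may be mixed.

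**Figure D5:**
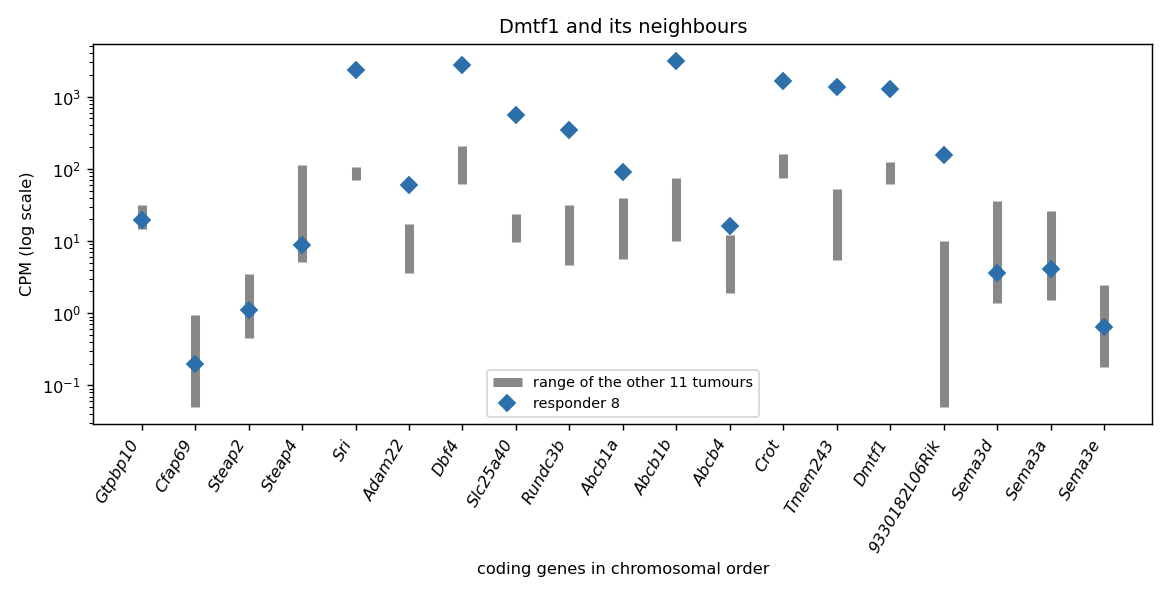
CPM (log axis) of Dmtf1 and the tested coding genes around it, in chromosomal order. Diamonds are responder 8 and grey bars span the other 11 tumours, with bars that reach 0 ending at a small floor. Responder 8 lies above the bar for the 12 genes from Sri to 9330182L06Rik and inside it for the genes on both sides.

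Responder 8 was also the tumour with the highest Cdkn2a, Cdkn2b and Trp53, as given above, at 121.9, 16.7 and 110.8 CPM. Its Mdm2, at 76.1 CPM, was inside the range of the other responders, and its log2 ratio of Mdm2 to Trp53 was the lowest of the 12. For Cdkn2b the next tumour was responder 2, at 15.3 CPM. Responder 8 also had the lowest non-T-cell score of the responders, 2.42, against 3.05 to 5.62 in the others. Pearson's r with that score over the 12 tumours is given above for Trp53 and Cdkn2a, and it was -0.27 for Cdkn2b. Responder 8 is 1 tumour with no replicate, and the parts of Dmtf1 and of the non-T-cell score in its other values were not tested.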

How the data were processed

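The authors deposited raw counts of reads per Ensembl gene for 12 tumours in 1 table of 37991 genes. Per the labels' protocols, TruSeq mRNA libraries were sequenced as 75-base paired-end reads and each tumour is an independent biological sample, with no batch or pairing given. Per the submitters' processing notes, counting used HTSeq and the authors' comparison used DESeq, both without a stated version. These notes name NCBIM37 while the extract protocol names mm10, so the build is not settled. Not given in the sources used here are the aligner, the annotation release and whether strand was used. Coordinates and exon lengths are from GENCODE M21 (GRCm38), matched by Ensembl identifier, of which 32919 had a symbol and 5072 had none.

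Counts were used as deposited. After filterByExpr, 18612 genes were scaled by TMM and tested with edgeR 4.0.16 (R 4.3.3) by the robust quasi-likelihood F test, two-sided, with Benjamini-Hochberg adjustment over all of them and a threshold of 0.05. CPM are counts relative to the TMM-scaled total of their library, brought to 1 scale, with a prior count of 2 where the log2 was taken. Ratios were compared by exact permutation and relations by permutation (100000 resamples, exact within responders). The score of a cell type is the mean log2 CPM of its markers. DESeq2 1.42.0, limma-voom (limma 3.58.1), other scalings and filters, both scores as covariates and leaving out each tumour were the alternatives. The procedure was tested on simulated data.

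The members and the lists were chosen with earlier results of these data known. Named genes are the 8 members, the 2 genes with the lowest p of each list, the 4 most similar genes for Trp53, Mdm2 and Cdkn2a, and the nearest coding neighbours; others are said to have been chosen after their values were seen.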

Additional observations from a re-analysis of the deposited data

Results flagged for a closer look

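In each group the highest or lowest tumour was marked where its gap to the nearest other tumour took up more of the group's range than Dixon's 95% critical value. The 86 tests include 14 on Dmtf1 and 6 genes beside it, which were taken up because responder 8 was highest there, so the 7 marks in responder 8 among them are set by that choice. The other 72 tests gave 2 marks, and chance alone marks about 1 in 20 groups. Among the 8 genes of the set the only mark was Ppm1d in non-responder 2, at 32.27 CPM, against 38.6 to 40.1 CPM in the other 3 non-responders. Sirt1 in non-responder 4 was at 112.9 CPM, against 73.9 to 75.6 CPM in the other 3. Crot in non-responder 2 was at 130.5 CPM, against 73.5 to 78.6 CPM in the other 3. The remaining 7 marks were in responder 8, in the run of genes around Dmtf1 on chromosome 5, to which Crot belongs too. There, Dmtf1 was at 1260 CPM, Sri at 2345 CPM, Dbf4 at 2774 CPM, Slc25a40 at 562.5 CPM, Abcb1b at 3079 CPM, Crot at 1663 CPM and Tmem243 at 1335 CPM, each above the other 7 responders. What sets responder 8 apart was not tested.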

How the results depend on the processing

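edgeR called 0 genes, DESeq2 called 2462, limma-voom called 1647, and leaving out 1 tumour gave 0 to 5, the 5 without responder 3, 3 without non-responder 1 and 1 without non-responder 3. Genes at an unadjusted p under 0.05 numbered 4428, 1335 with the cortical score, 1184 with the non-T-cell score and 3224 to 5534 with 1 tumour left out. The log2 fold change of Mdm2 was 0.62 and past the threshold in DESeq2, and 0.42 to 0.73 with 1 tumour left out. That of Trp53, -0.0021, was 0.015 with RLE scaling, 0.045 without a filter, 0.14 with the cortical score, 0.016 in DESeq2, 0.048 in limma-voom and -0.053 to 0.12 with 1 tumour left out. That of Cdkn2a was -0.021 with upper-quartile scaling, -0.47 with the non-T-cell score and -0.052 to 0.16 with 1 tumour left out, and that of Ppm1d was -0.039, -0.073 and -0.025 to 0.14 under the same settings. The non-T-cell score gave -0.043 for Rfwd3, -0.19 for Ets2 and 0.53 for Cpm, and the cortical score gave 0.96 for Cpm. Dmtf1 was at 0.19 in DESeq2. With 1 tumour left out, Dmtf1 was at -1.35 to 0.18, Atp1b2 at -0.13 to 1.09 and Cpm at -0.62 to 0.012. The ratio of Mdm2 to Trp53 differed by 0.40 to 0.66 and that of Mdm4 to Mdm2 by -0.43 to -0.20 with 1 tumour left out. With 1 tumour left out, Chek2 was at 0.13 to 0.54, Foxo3 at 0.20 to 0.60 and Yeats4 at 0.36 to 0.80. The causes of these shifts were not tested. Trp73 has no value with a filter of 1 CPM in 4 libraries, which removes it. Besides Mdm2, 17 values of single genes not called by edgeR passed in DESeq2 or limma-voom, in the same direction as in edgeR. No paired analysis was made because each tumour is an independent sample and the labels give no pairing. The replicate numbers used here only name the tumours. Low counts limit Trp73, Tbx2, Tbx3, Twist1 and Eda2r, and Dmrta1 in non-responders.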
